A study of Mus musculus with 4 samples.

Results

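The genes described here are a group of C-type lectin receptors of myeloid cells, Clec4a1, Clec4a2, Clec4a3, Clec4d, Clec4e, Clec4n, Clec7a, Clec12a and Clec10a, taken by name. Of these 9 genes, 8 had a row among the 12596 genes of the deposited table, matched by Ensembl identifier, and Clec7a was not analysed here. They were followed in single colonic monocytes and macrophages of 4 male mice of strain background C57/Bl6N. The DEP mice, numbers 14 and 15, had received 12 µg of diesel exhaust particles in 200 µL of PBS by oral gavage on 5 days a week for about 6 months, and the PBS mice, numbers 2 and 3, PBS alone. Cells of the lamina propria were sorted for Cd11b together with Ly6c2 or Cd64, and each mouse went into 1 well of a droplet instrument that counts the 3′ ends of transcripts as unique molecular identifiers (UMIs). Each group thus rested on 2 mice of 1 sex, all sorted in a single batch. P-values for single genes set differences against a spread between summed counts. It was estimated in part, or for the interaction term below almost wholly, from all genes tested. Comparisons made within mice leave out the spread between mice.

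Myeloid C-type lectin receptors are membrane proteins that bind sugars and lipids of microbes and of damaged cells. Clec4e (Mincle), Clec4d (MCL) and Clec4n (Dectin-2) pair with the adaptor Fcer1g, which recruits the kinase Syk and, through Card9, drives cytokine genes. Clec4a2 (DCIR) and Clec12a (MICL) carry an inhibitory motif in their cytoplasmic tail, Clec4a1 and Clec4a3 are close relatives of Clec4a2, and Clec10a is a galactose-type lectin of macrophages and dendritic cells.

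Of the 943 deposited cells, 149 carried UMIs of at least 3 markers of B or plasma cells, T cells, natural killer or innate lymphoid cells, epithelium or stroma and were left out, 132 of them in the B or plasma cell class, and only 39 cells would have been left out without immunoglobulin genes as markers. The 794 retained cells gave 184 and 191 cells in the PBS mice 2 and 3 and 152 and 267 cells in the DEP mice 14 and 15, with 666281 to 943874 UMIs per mouse and a median of 2726 to 4532 UMIs per cell. A single cell barcode was shared by 2 mice. The gates were set on these cells. A cell was Plac8-high with at least 2 UMIs of Plac8, a gene of circulating monocytes, and C1q-high when C1qa, C1qb and C1qc, which encode complement component C1q made by tissue macrophages, together held at least 0.5% of its UMIs. There were 133 cells that were Plac8-high only, 48 in both gates, 597 that were C1q-high only and 16 in neither. Cells near a threshold were few for C1q, with 6 cells from 0.4% to under 0.5% and 6 from 0.5% to under 0.6%, while 47 cells held exactly 1 Plac8 UMI and 16 exactly 2.

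Genes that had not set the gates also separated them. All 12 tested monocyte markers, Ly6c2 and Chil3 among them, were higher in Plac8-high only than in C1q-high only cells of the same mice, and all 17 tested markers of resident macrophages, such as Pf4, Vcam1, Cd63 and Cd81, were lower. Of all genes tested 8.65% were higher and 11.7% lower. The marker lists were chosen with earlier results of these data known, so they are no independent check of the gates. Summed over their lists, monocyte markers reached 5857 to 8094 UMIs per 1000000 UMIs (CPM) per mouse in Plac8-high only and 310.1 to 433 CPM in C1q-high only cells. Markers of other cells were low in Plac8-high only cells but not absent, with 0 to 324 CPM for dendritic cells (10 of 13 markers had a row, of which Cd209a had 58 UMIs, Ccr7 17, Flt3 3 and Clec9a none), 158 to 200.1 CPM for neutrophils (5 of 11 markers had a row) and 271 to 478 CPM for B or plasma cells. The same lists gave 37.1 to 74.1, 30.5 to 52.1 and 362 to 476 CPM in C1q-high only cells. Markers of T cells, natural killer or innate lymphoid cells, epithelium, stroma and eosinophils each summed to at most 39.8 CPM in Plac8-high only and 81.9 CPM in C1q-high only cells, and the T cell marker Cd4 and the endothelial marker Pecam1 were lower in Plac8-high only cells (log2 −4.52 and −2.91). What these markers contribute to the values below was not tested.

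Among the 8 genes, 7 lie on chromosome 6 of the mouse genome (GRCm38). Clec4a1 (chr6:122921848-122934619), Clec4a3 (chr6:122952515-122969875), Clec4a2 (chr6:123106428-123143999), Clec4n (chr6:123229843-123247021) and Clec4d (chr6:123262111-123275265) follow each other on the plus strand, and Clec4e (chr6:123281789-123289870) comes next on the minus strand. Clec12a (chr6:129342691-129365303, plus strand) lies farther along the chromosome and Clec10a (chr11:70156197-70170834, plus strand) on chromosome 11. Clec4d and Clec4e are neighbours, and with Clec12a they were the genes with higher levels in Plac8-high cells, so their promoters are printed here, from 250 bases before to 50 bases after the transcription start, on the strand of the gene, as given by RefSeq for GRCm38.p6. Capitals mark GAGGAA, the core recognised by the myeloid factor PU.1, and TTGCNNAA, a core of C/EBP sites, each on either strand and without overlap between them.
Clec4d (chr6:123261857-123262156, plus strand): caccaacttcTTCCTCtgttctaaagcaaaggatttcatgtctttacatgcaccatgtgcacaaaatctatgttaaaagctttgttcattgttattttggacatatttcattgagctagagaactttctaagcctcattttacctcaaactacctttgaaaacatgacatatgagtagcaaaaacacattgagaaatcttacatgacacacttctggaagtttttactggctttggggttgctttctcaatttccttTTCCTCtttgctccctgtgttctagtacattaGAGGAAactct
Clec4e (chr6:123289822-123290121, minus strand): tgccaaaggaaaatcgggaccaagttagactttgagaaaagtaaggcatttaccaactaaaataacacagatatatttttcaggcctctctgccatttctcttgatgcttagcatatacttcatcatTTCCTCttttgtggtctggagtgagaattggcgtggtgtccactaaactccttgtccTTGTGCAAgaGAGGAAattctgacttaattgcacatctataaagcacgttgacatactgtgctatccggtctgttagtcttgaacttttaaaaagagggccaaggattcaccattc
Clec12a (chr6:129349994-129350293, plus strand): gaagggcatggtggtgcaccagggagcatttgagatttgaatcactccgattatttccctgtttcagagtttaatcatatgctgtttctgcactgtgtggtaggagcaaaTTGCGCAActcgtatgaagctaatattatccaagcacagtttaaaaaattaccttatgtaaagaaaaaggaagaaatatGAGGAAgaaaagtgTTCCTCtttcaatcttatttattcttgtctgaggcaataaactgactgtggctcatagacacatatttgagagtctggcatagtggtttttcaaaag
GAGGAA occurred 3 times in the Clec4d window and 2 times each in those of Clec4e and Clec12a, and TTGCNNAA once each in Clec4e and Clec12a. RefSeq gave such a window for 6 of the genes. GAGGAA was also found 2 times in Clec4a1 and not in Clec4a2 or Clec4a3, so 4 of 6 windows held it, against 28.3% of all 27025 promoters, and TTGCNNAA was in 2 of 6, against 10.8%. These are matches of letters in short windows and no measurement of binding.

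Clec4e separated the gates more than any other gene of the group. In Plac8-high only cells it reached 524 CPM in DEP mouse 14, 1240 CPM in DEP mouse 15, 1441 CPM in PBS mouse 2 and 688 CPM in PBS mouse 3, from 54 to 218 UMIs per mouse. In C1q-high only cells it was 19.5, 48.5, 21.6 and 29.3 CPM in the same order. The lowest Plac8-high value thus lay above the highest C1q-high value, and the means were 973 ± 437 and 29.7 ± 13.2 CPM (SD, n = 4 mice). In edgeR's quasi-likelihood test on UMIs summed per mouse and gate, with the mouse as a block, Clec4e was 25.0-fold higher in Plac8-high only cells (log2 4.65 ± 0.205 SE, Benjamini-Hochberg adjusted p = 2.99e-29). The 48 cells in both gates held 254 ± 204 CPM of Clec4e, ranging from 18.3 to 475 CPM.

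Clec4d, which can form a complex with Clec4e, was lower in counts. Its Plac8-high only level was 67.9 and 216 CPM in DEP mice 14 and 15 and 80.1 and 45.1 CPM in PBS mice 2 and 3, of which mouse 15 gave 38 UMIs and the others 4 to 7. In C1q-high only cells it was 3.90, 21.4, 28.8 and 37.8 CPM. In these unscaled values every mouse had more Clec4d in its Plac8-high only cells. The lowest value of that gate, 45.1 CPM, lay close to the highest value of the other. After the TMM scaling used in the test the gates overlapped, and PBS mouse 3 no longer had more Clec4d in its Plac8-high only cells. The fold change was 4.0 (log2 2.0 ± 0.378 SE, edgeR adjusted p = 2.62e-05). Without DEP mouse 15 it was log2 1.18 with an adjusted p of 0.142, so the call rested on that mouse.

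Clec4n, the third receptor of this adaptor group, went the other way. It had 413 and 381 CPM in C1q-high only cells of DEP mice 14 and 15 and 595 and 497 CPM in those of PBS mice 2 and 3, against 136, 205, 40.0 and 78.9 CPM in Plac8-high only cells. The ranges did not meet, with means of 472 ± 95.7 and 115 ± 71.7 CPM (SD, n = 4 mice), and Clec4n was 4.08-fold lower in Plac8-high only cells (log2 −2.03 ± 0.230 SE, edgeR adjusted p = 5.99e-11). Within the summed level of the 8 genes, Clec4e made up 23.6% to 53.3% in Plac8-high only and 1.27% to 3.14% in C1q-high only cells, and Clec4n 1.48% to 7.16% and 24.7% to 35.0%. The sum itself was 2210 to 2860 CPM in Plac8-high only and 1482 to 1700 CPM in C1q-high only cells.

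The genes with an inhibitory motif differed in direction. Clec12a had 262, 142, 220 and 304 CPM in Plac8-high only cells of mice 14, 15, 2 and 3 and 83.9, 113, 82.7 and 68.3 CPM in their C1q-high only cells, without overlap. It was 2.08-fold higher in Plac8-high only cells (log2 1.05 ± 0.235 SE, edgeR adjusted p = 0.000386), and without PBS mouse 3 its log2 fold change was 0.76 with an adjusted p of 0.0529. Clec4a2 was the steadiest gene between mice, with 242 to 300.2 CPM in Plac8-high only and 372 to 418 CPM in C1q-high only cells. It was 1.73-fold lower in Plac8-high only cells (log2 −0.79 ± 0.179 SE, edgeR adjusted p = 0.000422), a call that was lost when each cell was reduced to 1000 UMIs (log2 −0.63, adjusted p = 0.0933).

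The other 3 genes did not pass the test between gates. Clec4a3 had 543, 358, 500 and 564 CPM in Plac8-high only cells of mice 14, 15, 2 and 3 against 274 to 347 CPM in C1q-high only cells (log2 0.38, 95% interval 0.03 to 0.72, edgeR adjusted p = 0.120). Here the scaling decided the call, since with library sizes alone in place of TMM factors Clec4a3 stood at log2 0.66 with an adjusted p of 0.0017, and without DEP mouse 15 it passed under TMM as well (log2 0.60, adjusted p = 0.0238). Clec4a1 had 269 ± 143 and 240.2 ± 32.6 CPM (SD, n = 4 mice), a log2 difference of 0.00 with a 95% interval from −0.41 to 0.41. Clec10a was sparse, with 1 to 11 UMIs per mouse in Plac8-high only cells, and its interval of −0.80 to 0.81 allowed a difference in either direction. Clec4a2 and Clec10a share sequence with relatives, 198 of 2959 windows of 50 bases of Clec4a2 with other genes, mostly Clec4a4 and Clec4b1, and 287 of 3181 of Clec10a, mostly with Mgl2, so that reads of these genes could be assigned to a relative or lost.

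In all, 5 of the 8 genes passed, 3 higher and 2 lower in Plac8-high only cells, where 20.3% of the 5355 genes tested passed, 8.65% higher and 11.7% lower. On CPM scaled by TMM factors, the ranges of the gates did not overlap for 2 genes higher (Clec4e, Clec12a) and 2 lower (Clec4n, Clec4a2), against 8.48% and 15% of all genes. At an unadjusted p under 0.05 there were 6 of the 8, against 30.1% of all genes. The median log2 fold change was 0.19 over the 8 genes and −0.10 over all genes. Library-size scaling moved the median over all genes up by 0.28 on the log2 scale and the share of higher genes among those called from 42.6% to 65.9%, while the directions of the 5 called receptors were the same under both.

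**Figure D1:**
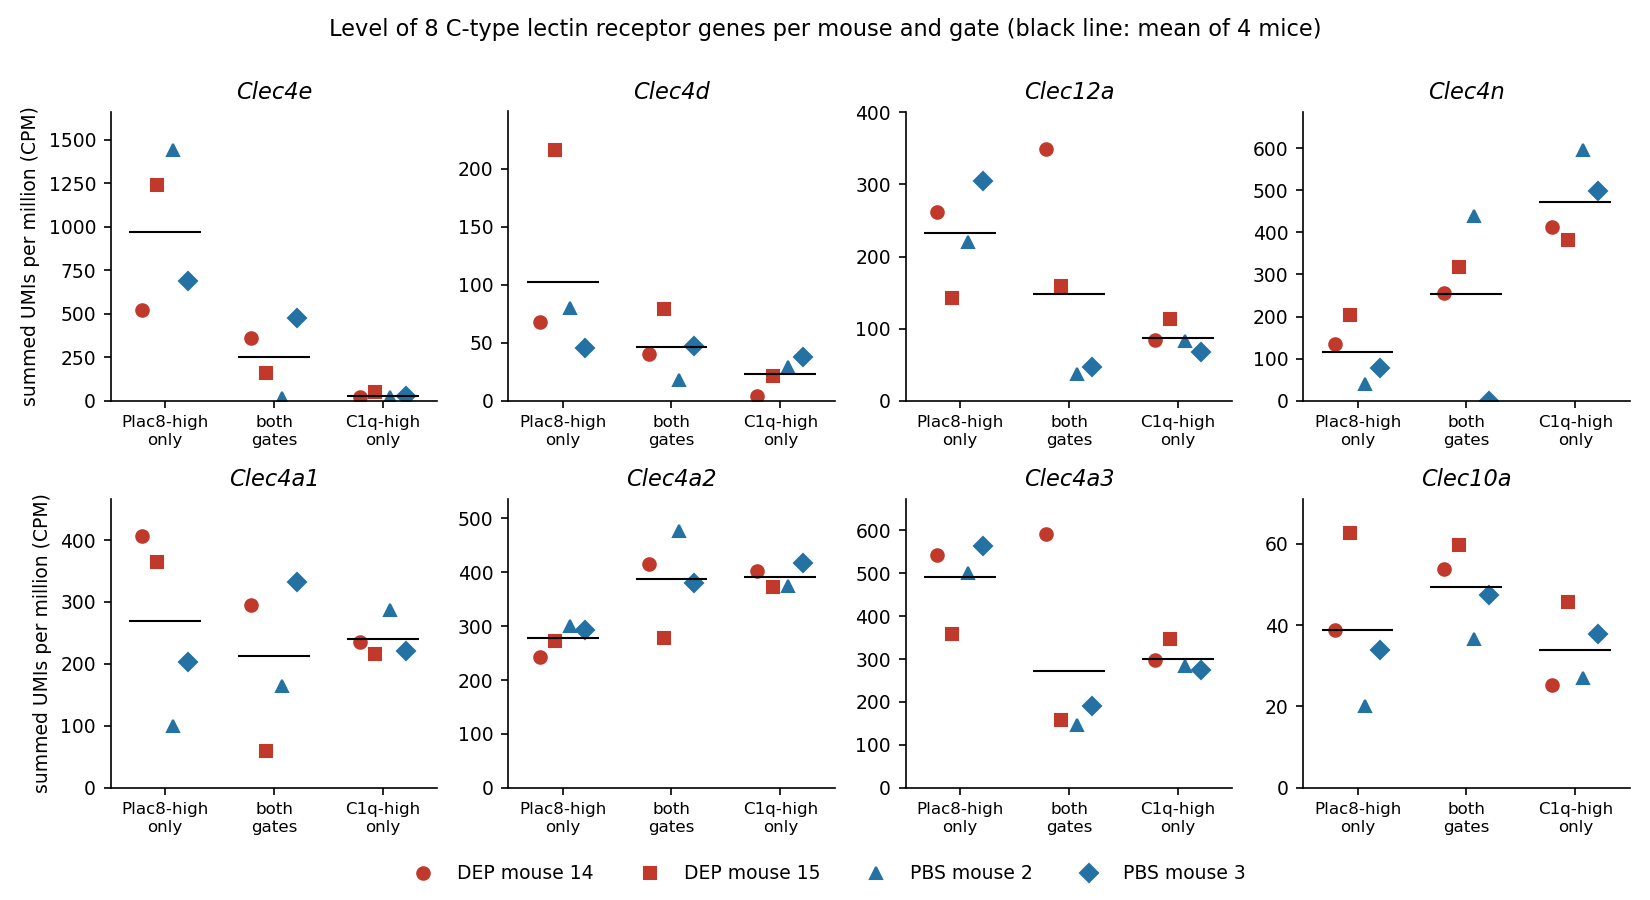
Level of each C-type lectin receptor gene in CPM (y axis, linear, 1 panel per gene) in Plac8-high only cells, cells in both gates and C1q-high only cells, with 1 symbol per mouse (red, DEP; blue, PBS) and a black line at the mean of 4 mice. Clec4e lies at 524 to 1441 CPM in Plac8-high only cells and at 19.5 to 48.5 CPM in C1q-high only cells, and Clec4n runs the opposite way.

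**Figure D2:**
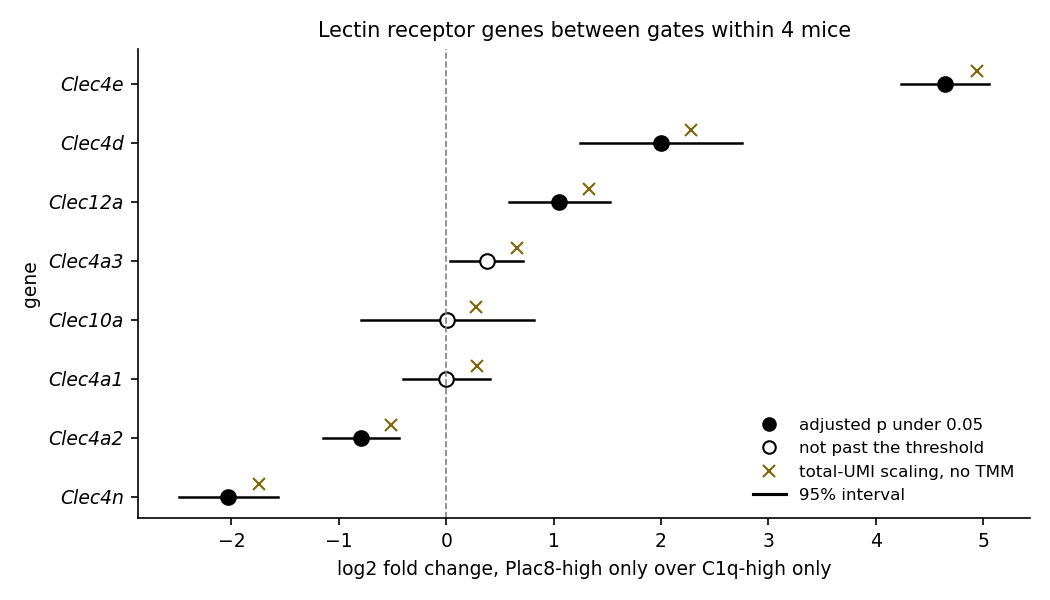
Log2 fold change of each gene in Plac8-high only over C1q-high only cells of the same 4 mice (x axis) with its 95% interval, filled where the edgeR adjusted p is under 0.05, and crosses for scaling by total UMIs alone. Clec4e, Clec4d and Clec12a lie to the right of 0, Clec4n and Clec4a2 to the left, and Clec4a1 and Clec10a at 0, with every cross shifted to the right.

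Counted by cells, a UMI of Clec4e was present in 62.4% of the 133 Plac8-high only cells (exact binomial 95% interval 53.6% to 70.7%) and in 9.05% of the 597 C1q-high only cells (6.87% to 11.6%), at median depths of 3183 and 3800 UMIs. After each cell was reduced to 1000 UMIs the shares were 43.6% and 3.02%. Clec4n showed the reverse, with 28.6% and 57.6% as deposited and 13.5% and 29.1% at 1000 UMIs. Clec12a had 44.4% and 24.3%, or 18.0% and 8.88% at 1000 UMIs, and Clec4d 21.1% and 8.54%, or 6.77% and 2.51%. Intervals over cells cover counting error only.

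Free RNA in droplets can put a UMI into a cell that does not express the gene. As a measure of it, the same shares were taken in 19 B cell-like cells with UMIs of at least 3 of 8 B cell markers other than immunoglobulins, a set chosen after the values were seen, with a median of 5176 UMIs. C1qb, a macrophage gene, had a UMI in 68.4% of them. Clec4n had a UMI in 31.6% of the B cell-like cells (12.6% to 56.6%), against 28.6% of the shallower Plac8-high only cells. Clec4e had a UMI in 5.26% of the B cell-like cells (0.133% to 26.0%), an interval that holds its 9.05% in C1q-high only cells. With 19 cells these intervals are wide, and levels of genes of the other gate are given beside them. In Plac8-high only cells the pooled level of the macrophage genes Pf4, Cd63 and Cd81 was 14.4, 50.3 and 119.7 CPM, against 1254, 1500.4 and 2606 CPM in C1q-high only cells, a smaller part than for Clec4n with means of 115 and 472 CPM. In C1q-high only cells the monocyte genes Hp, Chil3 and Ly6c2 had pooled levels of 4.25, 2.32 and 5.02 CPM, against 998, 721 and 745 CPM. This was again a smaller part than for Clec4e with means of 29.7 and 973 CPM. These genes were among those of their lists with the largest differences between the gates, and others kept a larger part than the receptor. In Plac8-high only cells Cx3cr1 and Csf1r had 167.6 and 378 CPM, against 454 and 713 CPM in C1q-high only cells. In C1q-high only cells Ccr2 and Ms4a4c had 194.6 and 92.3 CPM, against 790 and 1061 CPM. The part of free RNA in either low level was not tested further. For Clec4a1, Clec4a3 and Clec12a the B cell-like shares were 15.8%, 15.8% and 10.5%, below those of both gates, with 51.9% and 53.6% for Clec4a1 and 64.7% and 62.6% for Clec4a3 in Plac8-high only and C1q-high only cells. Clec4a2 had 26.3% against 42.9% and 68.8%, and Clec10a 5.26% against 8.27% and 11.1%.

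Clec4e and Clec4n were also counted together in single cells. At 1000 UMIs per cell, 50 of the 133 Plac8-high only cells held Clec4e without Clec4n, 10 held Clec4n without Clec4e, 8 held both and 65 neither. Of the 597 C1q-high only cells, 167 held Clec4n alone, 11 Clec4e alone, 7 both and 412 neither. Among the 48 cells in both gates there were 6 with Clec4e alone, 11 with Clec4n alone, 0 with both and 31 with neither. The product of the shares of each gene would give 7.85 Plac8-high only, 5.25 C1q-high only and 1.38 both-gate cells with both, beside the 8, 7 and 0 counted. At full depth 25 Plac8-high only and 41 C1q-high only cells held both. Within their gates the UMIs were unevenly spread. The 14 Plac8-high only cells with most Clec4e held 45.2% of its 405 UMIs, with up to 28 in a cell, and the 60 C1q-high only cells with most Clec4n held 47.8% of its 1218 UMIs, with up to 31. For Clec4d, 14 Plac8-high only cells held 73.6% of 53 UMIs. Per cell, the median number of the 8 genes with a UMI was 3 in both gates, or 2 in Plac8-high only and 1 in C1q-high only cells at 1000 UMIs, and cells with none made up 8.27% and 25.5% at that depth.

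**Figure D3:**
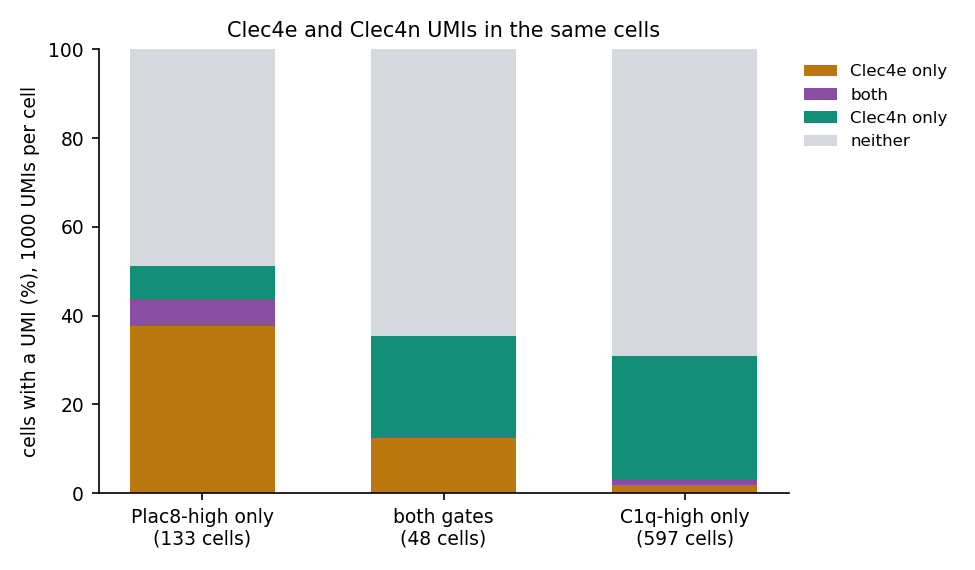
Percentage of cells (y axis) with a UMI of Clec4e only, Clec4n only, both or neither at 1000 UMIs per cell, in Plac8-high only (133 cells), both gates (48 cells) and C1q-high only (597 cells). Clec4e alone makes up 50 of 133 and 11 of 597 cells, and Clec4n alone 10 of 133 and 167 of 597.

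The levels also moved with the share of C1q within a cell, without regard to Plac8. Over 6 ranges of the C1q share, under 0.1%, 0.1% to 0.5%, 0.5% to 1%, 1% to 1.5%, 1.5% to 2% and 2% or more, with 123, 26, 47, 149, 244 and 205 cells summed over the mice, Clec4e was at 936, 833, 222, 80.2, 24.7 and 17.3 CPM. Clec4n was at 140.4, 141, 349, 382, 482 and 496 CPM. Pooled over the mice, Clec4e was thus lower in each range than in the one before, and Clec4n was about level over the lowest 2 ranges and higher after them. In no single mouse did either gene keep this order over all ranges. In DEP mouse 14, for example, Clec4e stood at 569 CPM from 0.1% to 0.5% and 631 CPM from 0.5% to 1%, and without that mouse the pooled value from 0.5% to 1% was 88.9 CPM. Every mouse had more Clec4e and less Clec4n under 0.1% than at 2% or more. Clec4d went from 119.6 and 127 CPM in the lowest ranges to 19.2 and 20.5 CPM in the highest, and Clec12a from 208 to 81.1 CPM. Clec4a2 was at 278, 212, 302, 340.3, 383 and 455 CPM. Clec4a3 was lowest in the range from 0.5% to 1%, with 215 CPM against 455 CPM below 0.1% and 334 CPM at 2% or more, and Clec4a1 was lowest there as well, with 161 CPM. Neither this dip nor the other steps were tested. The range from 0.1% to 0.5% held 2 to 11 cells per mouse.

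**Figure D4:**
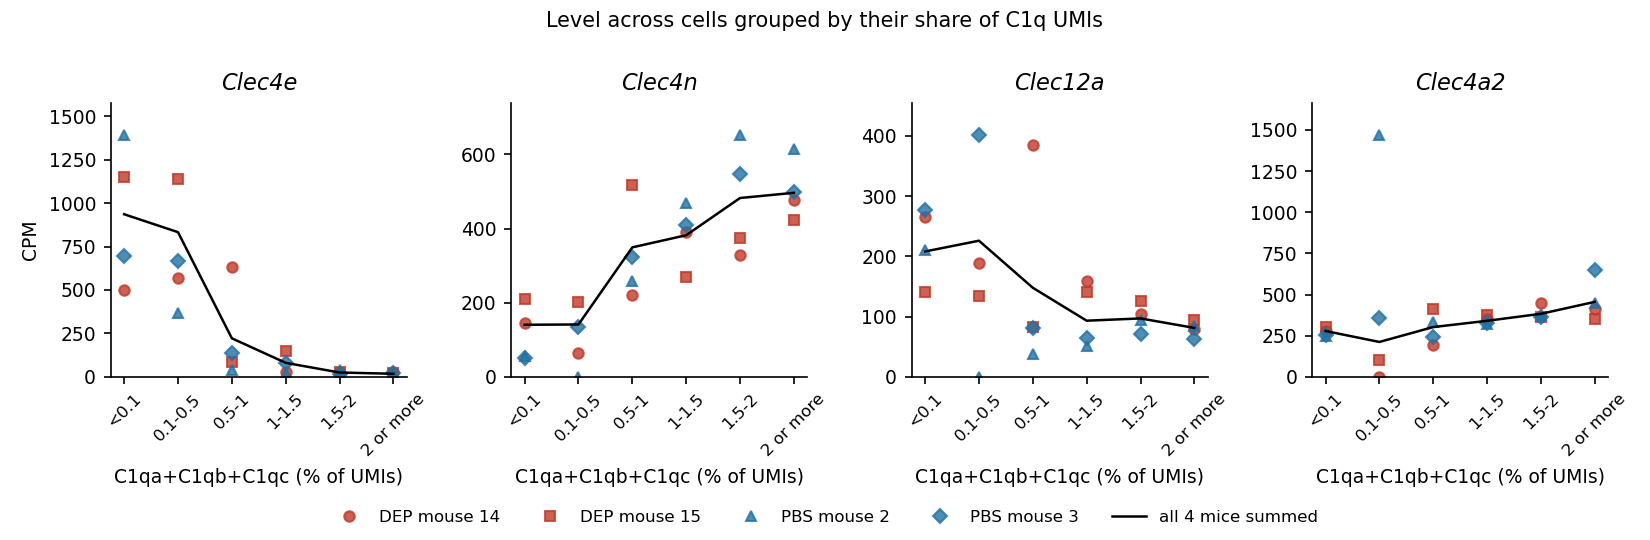
Level in CPM (y axis, linear) of Clec4e, Clec4n, Clec12a and Clec4a2 by the share of C1q UMIs in a cell (x axis, percent of UMIs), with a symbol per mouse and a line for all mice pooled. The range from 0.1% to 0.5% holds as few as 2 cells of a mouse, and pooled Clec4e goes from 936 to 17.3 CPM and pooled Clec4n from 140.4 to 496 CPM between the lowest and highest range.

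The shares of the gates did not overlap between the groups, although 2 against 2 mice cannot reach an exact permutation p below 0.333. Plac8-high cells made up 31.6% and 25.8% of cells in DEP mice 14 and 15 and 18.5% and 15.7% in PBS mice 2 and 3, a difference of 11.6 percentage points (28.7 ± 4.06 against 17.1 ± 1.96, SD, n = 2, exact two-sided permutation p = 0.333). C1q-high cells made up 78.3%, 74.9%, 89.1% and 84.8%, a difference of −10.4 percentage points with the same exact permutation p of 0.333. Of the 149 cells left out by markers, 133 were in a gate, and 37, 67, 16 and 29 came from mice 14, 15, 2 and 3. With all deposited cells the 2 differences were 8.69 and −9.73 percentage points, and 8.13 and −8.05 without immunoglobulin genes as markers. A level over all cells of a mouse therefore carries this difference in makeup.

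Upon DEP exposure none of the 8 genes passed edgeR's test, over all retained cells or in either gate, and none did with DESeq2. Over all cells 1 of 5346 genes passed (0.0187%, Plac8), in Plac8-high cells 0 of 4744 (0%) and in C1q-high cells 1 of 5456 (0.0183%, Ifitm3). At an unadjusted p under 0.05 there were 3, 2 and 4 of the 8 genes, against 6.15%, 5.19% and 6.29% of all genes tested. On the same scale, ranges of the DEP and PBS mice did not overlap for 4, 3 and 5 of the 8 genes, against 37.4%, 35.4% and 36.3% of all genes.

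In C1q-high cells, counted with those in both gates, Clec4n had 393 and 377 CPM in DEP mice 14 and 15 and 581 and 485 CPM in PBS mice 2 and 3 (log2 −0.49, 95% interval −0.82 to −0.15, edgeR adjusted p = 0.627). Clec12a stood at 117 and 116 CPM upon DEP, above 78.5 and 67.8 CPM upon PBS (log2 0.66, 0.22 to 1.11, adjusted p = 0.607). Its DEP and PBS means were 254 and 42.1 CPM in the cells in both gates. In C1q-high only cells they were 98.3 and 75.5 CPM, with DEP mouse 14 barely above PBS mouse 2. Clec4e had 63.0 and 55.9 CPM against 21.3 and 40.4 CPM (log2 0.87, 0.22 to 1.52, adjusted p = 0.667). For Clec4e the gap between the groups came with the cells in both gates, which gave 27 of the 37 UMIs of DEP mouse 14, and in C1q-high only cells the groups overlapped at 19.5 and 48.5 against 21.6 and 29.3 CPM (log2 0.45, adjusted p = 0.93). With those cells the groups did not overlap for any of these, and the intervals of the 3 genes lie to one side of 0, but none passed once all genes were taken into account. Clec4d had 8.51 and 25.3 CPM against 27.8 and 38.0 CPM (log2 −0.92, adjusted p = 0.768), from 5 to 32 UMIs per mouse.

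In Plac8-high cells, again with those in both gates, Clec4a1 had 360.3 and 296 CPM in DEP mice 14 and 15 and 134 and 228 CPM in PBS mice 2 and 3 (log2 0.85, 95% interval 0.15 to 1.54, edgeR adjusted p = 0.935). Clec4d had 56.3 and 186 CPM against 47.8 and 45.6 CPM (log2 1.40, 0.11 to 2.69, adjusted p = 0.935). Without any 1 mouse its log2 value ranged from 0.27 to 1.96, and in Plac8-high only cells the groups overlapped. Clec4e, the gene that stood out between the gates, had 456 and 999 CPM upon DEP, values that enclose the 698 and 647 CPM of the controls, with a log2 difference of 0.11 and an interval of −0.57 to 0.80. Over all retained cells Clec4e was at 131 and 279 CPM upon DEP and 131 and 110.3 CPM upon PBS (log2 0.76, adjusted p = 0.777), and it passed with an adjusted p of 0.0407 when no filter on low counts was applied, the only such call among the 8 genes in these comparisons.

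**Figure D5:**
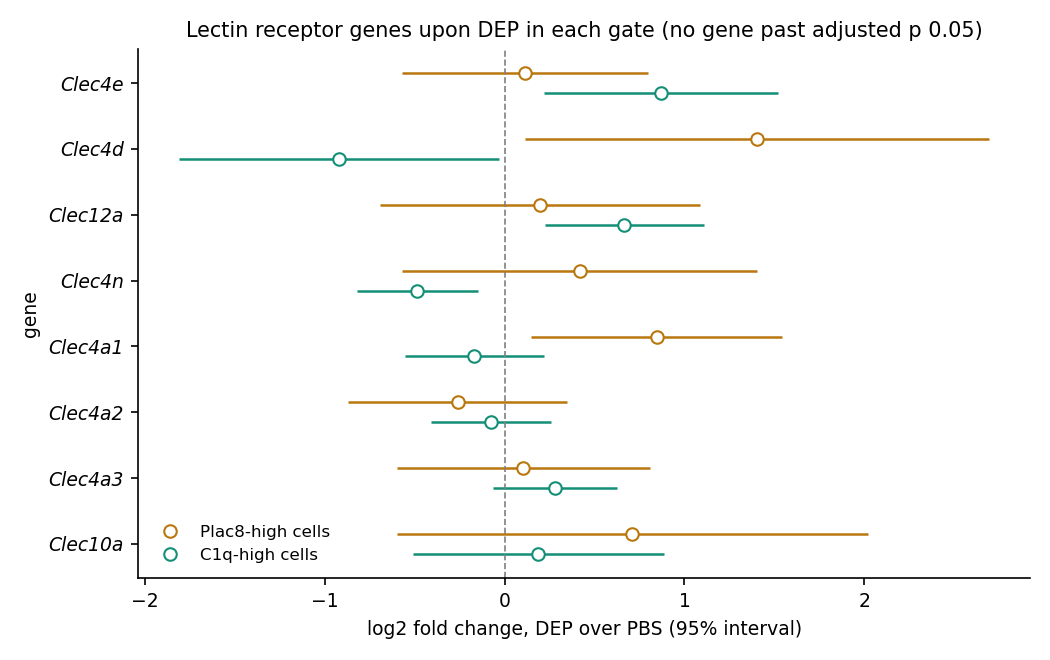
Log2 fold change of each gene upon DEP over PBS (x axis) with its 95% interval in Plac8-high and C1q-high cells, open symbols marking an edgeR adjusted p of 0.05 or more. No gene is called, and the intervals of Clec4d lie on opposite sides of 0 in the 2 gates. The Clec4d values rest on few UMIs, and its groups overlap in Plac8-high only cells.

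The DEP effect was then compared between the gates within the same mice by an interaction term, on Plac8-high only and C1q-high only cells. It passed for Clec4n and Clec4d, where 24 of 5355 genes did (0.448%, with 0.392% higher and 0.056% lower in Plac8-high only cells), led by H2-Eb1, Cd74 and H2-Ab1 of antigen presentation. For Clec4n, the ratio of the DEP mean to the PBS mean was 2.86 in Plac8-high only and 0.727 in C1q-high only cells, and the difference of the effects was log2 1.98 ± 0.506 SE (95% interval 0.99 to 2.97, edgeR adjusted p = 0.0259). For Clec4d the ratios were 2.27 and 0.380 and the difference log2 2.78 ± 0.721 SE (1.37 to 4.19, adjusted p = 0.0292). For Clec4a1, with ratios of 2.55 and 0.891, the difference of log2 1.46 ± 0.401 SE missed the threshold (adjusted p = 0.0583). At an unadjusted p under 0.05 there were 4 of the 8 genes, against 6.03% of all genes. The median difference was 0.39 over the 8 genes and 0.11 over all genes. The spread in the interaction test came almost wholly from all genes together, so a gene's own spread between mice hardly entered its p-value.

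Markers moved beside the receptors in this comparison. The resident macrophage marker Aif1 had an interaction of log2 1.86 (adjusted p = 3.17e-06), with 853 and 546 CPM in Plac8-high only cells of the DEP mice and 60.0 and 293 CPM in those of the PBS mice, the only 1 of the 17 tested markers of that list to pass, and it lost its call without PBS mouse 2 (adjusted p = 0.175). The dendritic cell markers summed to 184 and 324 CPM upon DEP and 0 and 192 CPM upon PBS. Their part in the receptors' differences was not tested.

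These interactions rested on few UMIs. In Plac8-high only cells Clec4n had 14 and 36 UMIs in the DEP mice and 2 and 7 in the PBS mice, and Clec4d 7, 38, 4 and 4. Without any 1 of mice 15, 2 or 3, Clec4n had an adjusted p of 0.979, 0.683 or 0.142, and Clec4d lost its call without any 1 mouse (adjusted p 0.0962 to 0.901). Clec4a1 passed without PBS mouse 3 (log2 2.48, adjusted p = 0.0451). Fitted without the mouse as a block, neither passed (log2 2.01, adjusted p = 0.474 for Clec4n and log2 2.80, adjusted p = 0.568 for Clec4d), and no gene did. The cells in both gates, which the interaction leaves out, held other levels of Clec4n. PBS mouse 2 had 18 such cells beside 16 Plac8-high only cells, with 439.8 CPM of Clec4n against 40.0 CPM, and the DEP effect on Clec4n was log2 0.42 in all Plac8-high cells and 1.5 (adjusted p = 0.321) in Plac8-high only cells.

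Genes of the route that these receptors use were read beside them. Of 35 adaptor and signalling genes 28 were tested between the gates, 8 higher and 2 lower in Plac8-high only cells, against 8.65% higher and 11.7% lower of all genes, with a median log2 of 0.38 over the list and −0.10 over all genes tested. The Src-family kinase Fgr was higher (log2 1.41 ± 0.243 SE, edgeR adjusted p = 4.34e-06), as were Irf5 (0.88, adjusted p = 0.000397) and Nfkb2 (0.93, adjusted p = 0.0470). Nfkb2 lost its call with DESeq2 size factors, without the block and without any 1 of mice 14, 15 or 2. The inositol phosphatase Inpp5d was lower (−1.32, adjusted p = 0.000981). Without DEP mouse 15 the list had 4 higher and 3 lower genes. Of 24 response genes 17 were tested, 3 higher and 7 lower, beside the same shares of all genes. The neutrophil chemoattractant Cxcl1 and the cytokine Il10 were lower (log2 −3.35 and −3.18, adjusted p = 6.97e-15 and 9.33e-08), with 0 to 200.1 CPM of Cxcl1 in Plac8-high only and 189 to 629 CPM in C1q-high only cells, and Nr4a1 was higher (1.49, adjusted p = 4.68e-10). The median of this list was −0.23, and 0.07 under library-size scaling, with 6 higher and 5 lower, so no direction was read for the list. Upon DEP no gene of either list passed in any of the 3 comparisons. In the interaction the interleukins Il1b (log2 0.89 ± 0.184 SE, adjusted p = 0.00082) and Il1a (4.50 ± 1.12 SE, adjusted p = 0.0193) passed, Il1a with 0 and 1 UMIs in Plac8-high only cells of the PBS mice. Il1b lost its call without mouse 15 or mouse 2 (adjusted p = 0.675 and 0.116), Il1a without any 1 mouse (0.1001 to 0.805), and both without the block.

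Other genes with a C-type lectin domain were counted in the same way. Of 48 such genes 37 had a row and 12 were tested, 2 higher, 6 lower and 4 not called in Plac8-high only cells, where 8.65% of all genes tested were higher and 11.7% lower, with the same counts under DESeq2 size factors, under library-size scaling and without any 1 mouse. The mannose receptor Mrc1 (log2 −4.19 ± 0.344 SE, edgeR adjusted p = 3.32e-16) had 0 to 45.1 CPM in Plac8-high only and 252 to 353 CPM in C1q-high only cells, and Cd72 (−5.26), Klrb1b (−3.64) and Cd93 (−2.76) were lower as well. 

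Over the 12 libraries formed by 4 mice and 3 sets of cells, the genes most like each receptor were taken from 1226 genes with a mean of at least 100 CPM, by Pearson's r of log2 CPM, as a description only, since the libraries share mice and differ in depth. Alox5ap and Slpi were closest to Clec4e (r = 0.957 for both), Anxa3 to Clec4n (0.943), Ms4a6b and Cd47 to Clec12a (0.922 and 0.918) and Dnaja2 to Clec4d (0.917). Clec4a3 was closest to Rsrp1 (0.912), Clec4a2 to Gdi2 (0.894), Clec4a1 to Psenen (0.867) and Clec10a, the sparsest gene, to Hypk (0.803). Among the receptors themselves r was 0.83 for Clec4a3 with Clec12a, 0.77 for Clec4d with Clec4e and −0.70 for Clec4a2 with Clec4e.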

How the data were processed

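The members and gene lists were chosen with earlier results of these data known. The authors sorted the cells, made 10x Genomics 3′ libraries, processed reads with Cell Ranger and aligned them to mm10 with STAR 2.6.1a (R 3.6 also stands in the submitters' processing notes), merged the mice without evening out depth, removed cells by their UMI number, gene number and mitochondrial content, and checked doublets by simulation. No doublet caller was run here. The deposited table holds whole UMI counts per gene and cell, not normalized, with the mouse in each column name. The shallowest cell has 1016 UMIs.

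Counts were summed per mouse and gate and tested with edgeR 4.0.16 (TMM, quasi-likelihood, R 4.3.3, Benjamini-Hochberg over all genes tested, threshold 0.05). A gene was tested when its CPM was above 1 in 2 or more libraries and at least 5% of the cells compared had a UMI of it. Plac8-high only and C1q-high only cells were compared with the mouse as a block, since both come from the same animals, and the interaction had the same block. Fold changes are fitted values, CPM are summed UMIs scaled to library totals, and UMIs of 3′ ends were not divided by transcript length. No test compared levels between genes, and the part of each gene in the summed level describes counted UMIs only. The script was tested on simulated counts. Shares used exact binomial intervals (scipy 1.17.1). Cells were thinned to 1000 UMIs for shares of cells.

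Named genes were all members, up to 4 called genes per list and comparison by size, and the 2 genes most like each member. Alternatives were DESeq2 1.42.0 and its size factors, no filter on low counts, all deposited cells, thinning, other gate thresholds, the cells in both gates assigned to either gate or left out, no block, and leaving out each mouse. Library-size scaling and leaving out cells without immunoglobulin markers were added after the data were seen. Gene positions are from GENCODE for GRCm38.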

Additional observations from a re-analysis of the deposited data

Results flagged for a closer look

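The DEP effect differed between Plac8-high only and C1q-high only cells by an interaction term for 2 of the 8 genes. For Clec4d the difference was log2 2.78 and for Clec4n log2 1.98, each higher in Plac8-high only cells, with edgeR adjusted p of 0.0292 and 0.0259. The levels of the 2 DEP mice lay above those of the 2 PBS mice for Clec4n in Plac8-high only cells and below them in C1q-high only cells, while for Clec4d DEP mouse 14 lay below PBS mouse 2 in Plac8-high only cells. Clec4n lost its call without mouse 15, 2 or 3 (adjusted p = 0.979, 0.683 and 0.142) and kept it without mouse 14 (0.039), Clec4d lost its call whichever mouse was left out, and neither passed without the block. The interaction p-values took their spread almost wholly from all genes together. The part of the low UMI counts in these differences was not tested.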

How the results depend on the processing

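Of the values for single genes under the alternatives, 455 kept their direction and side of the threshold, 13 lost a call, 4 gained a call and 48 changed direction, those that changed direction all being values that had not passed the test. The directions of Clec4e, Clec4d, Clec4n, Clec12a and Clec4a2 between the gates held under every alternative run, and Clec4e and Clec4n were called in each. The 2 mice a group and the few UMIs of Clec4d, Clec4n and Clec10a in Plac8-high only cells limit the precision.

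Between the gates the number of genes called was 584 with DESeq2 and 446 at 1000 UMIs per cell, against 1087, and 812 to 1039 without any 1 mouse. Of the 8 receptors 3 were called at 1000 UMIs, where Clec4d and Clec10a had too few counts to be tested, and 4 to 5 without any 1 mouse. Upon DEP over all cells the number was 52 with no filter on low counts, 0 at 1000 UMIs and 0 to 6 without any 1 mouse. In Plac8-high cells it was 19 with no filter, 2 with all deposited cells, 28 with the cells in both gates left out and 9 to 12 without any 1 mouse. In C1q-high cells it was 24 with no filter, 4 each with C1q at 1% and with library-size scaling, 0 to 17 without any 1 mouse, and 0 with DESeq2, at 1000 UMIs, with C1q at 0.25%, with the cells in both gates left out and with cells left out without immunoglobulin markers. The difference in gate shares was 8.75 to 14.5 percentage points for Plac8-high and −12.5 to −8.22 for C1q-high without any 1 mouse. The cause of these changes was not tested.

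The gates come from the same mice, so the mouse was the replicate block. Without the block, 0 genes and 0 receptors were called in the interaction, no receptor's call between the gates changed, and Clec4a1 stood at log2 −0.033. With no filter, 1 receptor was called in the interaction, as Clec4d missed the threshold (log2 2.89, adjusted p = 0.0561), and without any 1 mouse 8 to 15 genes and 0 to 1 receptors were. No paired analysis was possible because the DEP and PBS mice share no replicate number, for the comparisons of DEP with PBS.

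Log2 values that changed direction were, upon DEP over all cells, Clec4a1 at −0.011 and Clec4d at −0.15 with all deposited cells and Clec4d at −0.053 without immunoglobulin markers. In Plac8-high cells, at 1000 UMIs and with the cells in both gates left out, they were −0.20 and −0.21 for Clec4a3, −0.12 and −0.10 for Clec4e and −0.27 and −0.41 for Clec12a. In C1q-high cells Clec4a1 stood at 0.0023 at 1000 UMIs. Between the gates Clec4a1 stood at −0.039 with DESeq2 size factors, −0.20 with DESeq2, −0.19 with no filter, −0.22 with all deposited cells, −0.052 at 1000 UMIs, −0.047 without immunoglobulin markers, −0.025 with Plac8 at 1 UMI, −0.014 and −0.10 with C1q at 0.25% and 1% and −0.046 with the cells in both gates counted as Plac8-high. Clec10a stood at −0.045 with DESeq2 size factors, −0.10 with DESeq2, −0.16 with no filter, −0.089 and −0.31 with Plac8 at 1 and 3 UMIs, −0.035 and −0.064 with C1q at 0.25% and 1% and −0.036 with the cells in both gates counted as C1q-high. In the interaction Clec4a2 stood at 0.057 with no filter.

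Without any 1 mouse, values upon DEP over all cells ranged from −0.13 to 0.14 for Clec4a1, −1.11 to 0.70 for Clec4d and −0.15 to 0.55 for Clec10a. In Plac8-high cells they ranged from −0.38 to 0.48 for Clec4a3, −0.56 to 0.55 for Clec4e, −0.29 to 1.73 for Clec4n and −0.39 to 0.77 for Clec12a, and in C1q-high cells from −0.24 to 0.47 for Clec10a. Between the gates they ranged from −0.27 to 0.29 for Clec4a1 and −0.19 to 0.13 for Clec10a, and in the interaction from −0.21 to 0.061 for Clec4a2, −0.82 to 0.0014 for Clec4a3 and −1.16 to 0.19 for Clec4e.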
